A study of Mus musculus with 4 samples.

Results

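The genes of the switch that lets a cell leave G1 were followed in mouse pancreatic islets, the hormone-secreting cell clusters of the pancreas: the D-type cyclins Ccnd1, Ccnd2 and Ccnd3, the kinases Cdk4 and Cdk6, and the CDK inhibitors Cdkn1a, Cdkn1b, Cdkn2a, Cdkn2b and Cdkn2c. They were chosen by symbol, without use of their values, and are 10 of the 55487 genes in the table. Islet RNA of 30-week-old C57BL/6 mice was sequenced in 4 libraries: 2 controls from Ggcx flox/flox mice without Cre, and 2 knockouts from Ggcx flox/flox; Pdx1-Cre mice, in which the recombinase is driven by a promoter of the pancreatic lineage. Both genotypes carry the floxed Ggcx allele, which encodes gamma-glutamyl carboxylase. No library had Cre with an intact Ggcx gene, so Cre and loss of Ggcx cannot be told apart. Each library pooled the islets of 2 mice, and n below counts pools. Freshly isolated islets were used and received no treatment.

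A D-type cyclin binds CDK4 or CDK6, and the complex phosphorylates the retinoblastoma protein, which then releases E2F transcription factors and opens the way into S phase. The INK4 proteins (here the products of Cdkn2a, Cdkn2b and Cdkn2c) bind CDK4 and CDK6 and block them, while the CIP/KIP proteins p21 (Cdkn1a) and p27 (Cdkn1b) bind cyclin-CDK complexes and inhibit CDK2. Adult beta cells rarely divide. In the mouse, Cdk4 and Ccnd2 are known to be needed for beta-cell growth after birth, and p16 from Cdkn2a is known to accumulate in beta cells with age.

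The libraries held between 47624630 and 51756221 reads assigned to genes. Ggcx, the targeted gene, stood at 3971 and 3981 normalized reads in controls and at 234.2 and 643.4 in knockout replicates 1 and 2, so 5.89% and 16.2% of the control mean were left. The 7 beta-cell markers (Ins1, Ins2, Mafa, Ucn3, Slc2a2, Nkx6-1, Iapp) took 20.6% to 22.1% of each library, and none of them was at 0. Acinar and stromal markers differed between the genotypes, and their values stand beside the Cdkn1a result. Control libraries are called by their column numbers in the table, 2 and 3, because the labels number the control samples otherwise.

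None of the 10 genes passed the test between genotypes, limma with Benjamini-Hochberg adjustment over all tested genes at 0.05. The same fit called 103 of 16589 tested genes, which is 0.621%. All 10 genes passed the filter on low values. Cdkn1a came closest, with more transcript in both knockout pools than in either control pool (1.28-fold; limma adjusted p = 0.0550), and it was the only one of the 10 called under any of the 14 alternative settings run. At an unadjusted limma p under 0.05 there were 2 of 10, Cdkn1a above and Cdkn2b below the controls, against 14.1% of all tested genes. DESeq2 and edgeR, run on whole reads recovered from the values, each called 1 of 10, Cdkn1a, where they called 2.35% and 0.772% of all genes with an adjusted p. Of the 10, Cdkn2a had no adjusted p in DESeq2.

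**Figure D1:**
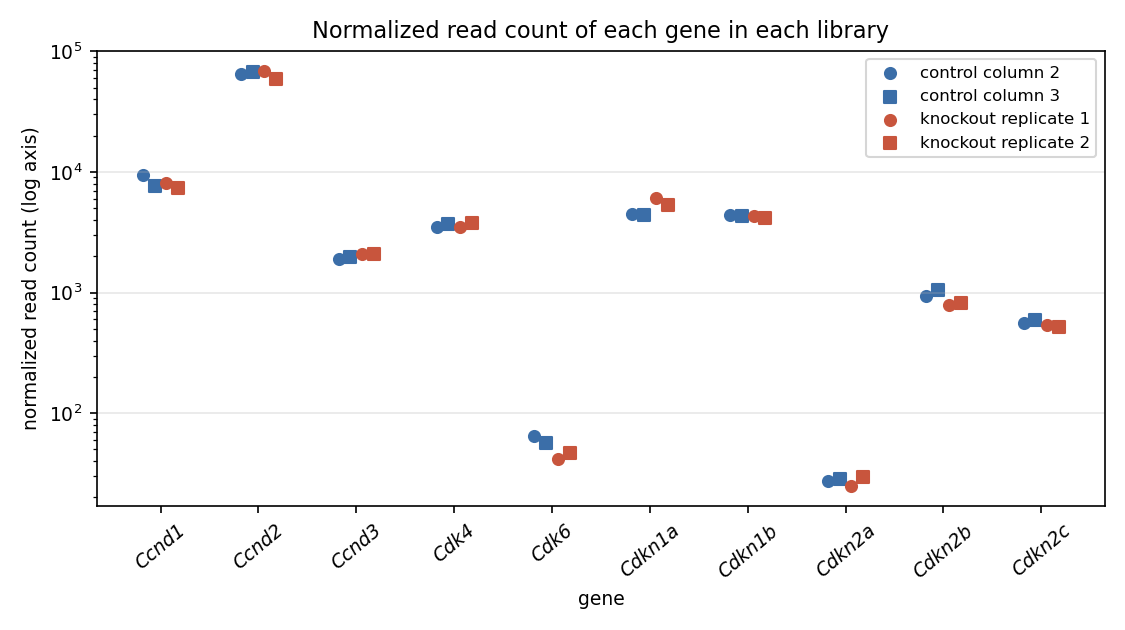
Normalized read count (log axis) of each of the 10 genes in the 4 libraries, controls in blue and knockouts in red, 1 point per pool of 2 mice. Ccnd2 lies highest, between 58976 and 68066, and Cdkn2a lowest, between 24.98 and 29.7. The Cdkn1a points of the knockouts (5328 and 6101) lie above both controls.

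Among the D-type cyclins, Ccnd2 (cyclin D2; ENSMUSG00000000184; GRCm38 chr6:127125162-127152193, minus strand) was the main transcript in both genotypes. It stood at 64554 and 67637 normalized reads in control columns 2 and 3, and at 68066 and 58976 in knockout replicates 1 and 2. The knockout pools were both the highest and the lowest of the 4, so the genotypes overlapped. The control mean was 66095 ± 2180 and the knockout mean 63521 ± 6427 (SD, n = 2 each). On log2(value + 1), the difference knockout minus control, called log2 fold change here, was -0.06 ± 0.07 (SE), with a 95% interval of -0.23 to 0.11 and a limma adjusted p of 0.776. Its sign depended on 1 pool: without knockout replicate 2 the log2 fold change was 0.043.

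Ccnd1 (cyclin D1; ENSMUSG00000070348; chr7:144929931-144939925, minus strand) is the D-type cyclin best known as a growth factor target. It stood at 9364 and 7712 normalized reads in the controls and at 8133 and 7308 in the knockouts. Control column 2 was high and the other 3 pools lay together, with the control pair 0.28 apart on the log2 scale. The log2 fold change of -0.14 ± 0.09 (SE; 95% interval -0.34 to 0.06; limma adjusted p = 0.539) was smaller than that gap. Leaving out 1 control at a time moved the log2 fold change from -0.28 (without column 3) to 0.00 (-0.00049, without column 2), so the difference rested on control column 2.

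Ccnd3 (cyclin D3; ENSMUSG00000034165; chr17:47505051-47599691, plus strand) was the least of the 3 per length. It stood at 1899 and 1953 normalized reads in the controls and at 2087 and 2091 in the knockouts. Both knockout pools lay above both controls, and the pools of a genotype lay close together. Its log2 fold change of 0.12 ± 0.05 (SE; 95% interval -0.01 to 0.24) did not pass the test (limma adjusted p = 0.381).

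Levels of different genes were compared as normalized reads per kilobase of exon, with length taken as the union of annotated exons. On that scale the D-type cyclins together came to 9066 and 9049 in controls and 9199 and 8058 in knockouts. Of this sum, Ccnd2 made up 77.6% ± 2.66 in control pools and 78.2% ± 0.61 in knockout pools (SD, n = 2 per genotype). Ccnd1 made up 20.02% ± 2.71 and 19.0% ± 0.34, and Ccnd3 2.42% ± 0.05 and 2.77% ± 0.26. The make-up of the pool was thus led by Ccnd2 in every library, at 75.7% to 79.4%. Shares were not tested, since the smallest two-sided p of an exact permutation test with 2 pools in each group is 0.333.

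**Figure D2:**
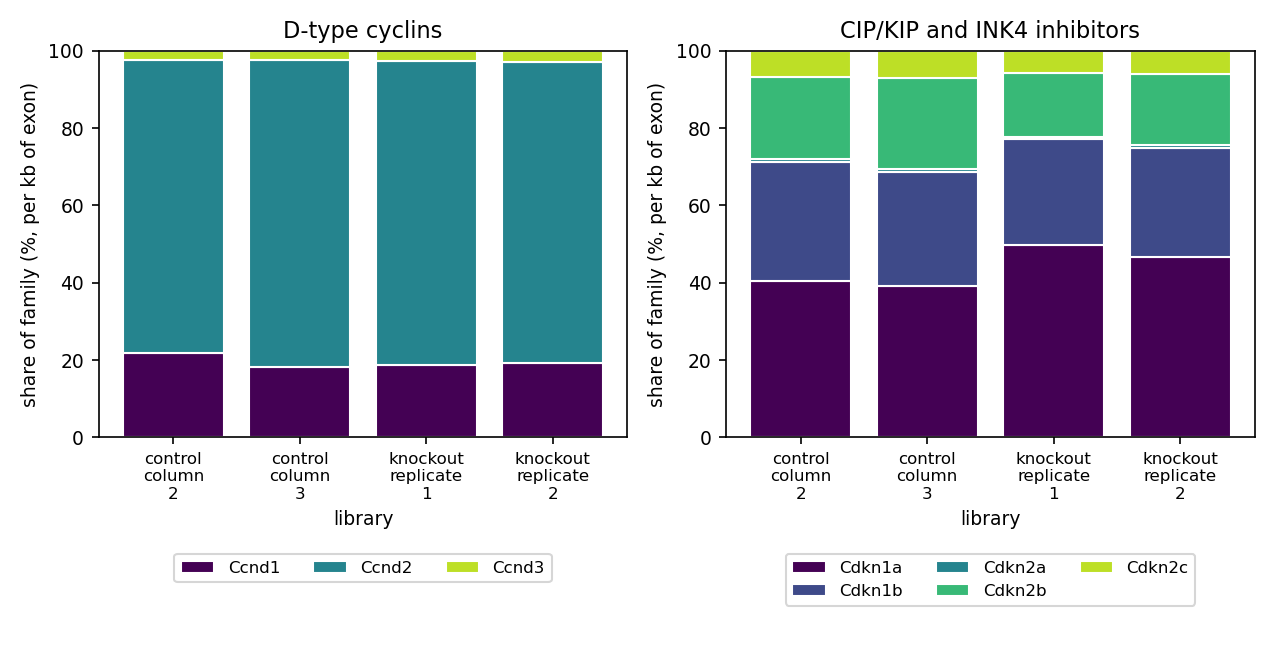
Share of each gene in its family (% of normalized reads per kb of exon, each bar summing to 100) in each of the 4 libraries. The left panel holds the D-type cyclins, with Ccnd2 between 75.7% and 79.4%. The right panel holds the inhibitors followed here, without Cdkn1c and Cdkn2d. There Cdkn1a goes from 40.5% and 39.1% in the controls to 49.8% and 46.6% in the knockouts.

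Of the 2 kinases that D-type cyclins activate, nearly all transcript was Cdk4. Cdk4 (ENSMUSG00000006728; chr10:127063534-127067920, plus strand) stood at 3509 and 3666 normalized reads in the controls and at 3514 and 3788 in the knockouts. The genotypes overlapped. Knockouts differed from controls by a log2 fold change of 0.02 ± 0.06 (SE), with a 95% interval of -0.10 to 0.15 and a limma adjusted p of 0.897. In fold terms the interval runs from 0.931 to 1.11. Without control column 2 or without knockout replicate 2 the sign turned, at -0.0070 and -0.030.

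Cdk6 (ENSMUSG00000040274; chr5:3341485-3531008, plus strand), the partner kinase with a large role in blood cells, was close to the low end of the measured range. Its normalized count was 64.4 and 56.5 in the controls and 41.6 and 47.0 in the knockouts. Both knockout pools lay below both controls. These values rest on few reads: 63 (exact 95% Poisson interval 48.4 to 80.6) and 58 (44.0 to 75.0) in controls, and 40 (28.6 to 54.5) and 49 (36.3 to 64.8) in knockouts, so the counting intervals of all 4 pools overlap; they cover counting error only. A log2 fold change of -0.44 ± 0.21 (SE; 95% interval -0.93 to 0.05) did not pass the test (limma adjusted p = 0.411). Per kilobase of exon, Cdk4 was between 235 and 363 times Cdk6, and Cdk6 ranked above only 3.29% of tested genes.

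The bases before the start of Cdk4 are shown as those of a gene that hardly differed between genotypes. The transcription factor Myc, described further down, acts through the E-box. Whether it acts on Cdk4 in these islets was not tested. The window is the 250 bases before the RefSeq start (GRCm38.p6, chr10:127063285-127063534, plus strand), with E-boxes (CACGTG, which reads the same on both strands) and GC boxes (GGGCGG on either strand) in capitals.
Cdk4: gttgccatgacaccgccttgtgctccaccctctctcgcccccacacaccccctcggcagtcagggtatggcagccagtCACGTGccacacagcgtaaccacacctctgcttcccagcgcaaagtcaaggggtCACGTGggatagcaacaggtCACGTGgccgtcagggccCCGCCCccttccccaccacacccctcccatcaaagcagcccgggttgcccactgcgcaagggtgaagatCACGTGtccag

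The Cdk4 window holds 4 E-boxes and 1 GC box, with no overlap between them. The Cdk6 window, not shown, holds 1 E-box. Of all 32851 RefSeq windows of this length, 6.02% hold an E-box and 32.7% a GC box. The motifs were chosen after the windows had been read, so these shares are no test of the matches. A match of letters is a description of the sequence and not a measured binding site.

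Cdkn1a (ENSMUSG00000023067; chr17:29090976-29100727, plus strand) encodes p21, the inhibitor best known as a target of p53. It stood at 4503 and 4398 normalized reads in control columns 2 and 3, and at 6101 and 5328 in knockout replicates 1 and 2. Both knockout pools lay above both controls, replicate 1 further than replicate 2. Control pools averaged 4451 ± 73.9 and knockout pools 5715 ± 546 (SD, n = 2 per genotype). The log2 fold change was 0.36 ± 0.07 (SE), with a 95% interval of 0.21 to 0.51, that is 1.15- to 1.42-fold. The pools of a genotype lay 0.03 (controls) and 0.20 (knockouts) apart on the log2 scale, both less than the difference between genotypes.

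The limma adjusted p of Cdkn1a was 0.0550, just past the threshold. Over 14 alternatives the adjusted p ranged from 0.00108 to 0.406, and 6 of them called the gene, some with 1 pool left out. It was called by DESeq2 (0.00108), by edgeR (0.0496), with robust empirical Bayes (0.0343), after scaling to a common upper quartile (0.0495), without control column 2 (0.0423) and without knockout replicate 2 (0.00249). In the authors' deposited table its log2 fold change, given there as control over knockout, is -0.36 with an adjusted p of 0.00108, and 2.35% of the genes with an adjusted p in that table are under 0.05. The DESeq2 fit on recovered reads gave these same values, so it is not a separate result. With 1 pool left out, that genotype has 1 pool and its spread is not measured. The log2 fold change was then 0.37 without control column 2 and 0.34 without control column 3. It was 0.46 without knockout replicate 2 and 0.26 without knockout replicate 1, the pool with the most Cdkn1a.

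**Figure D3:**
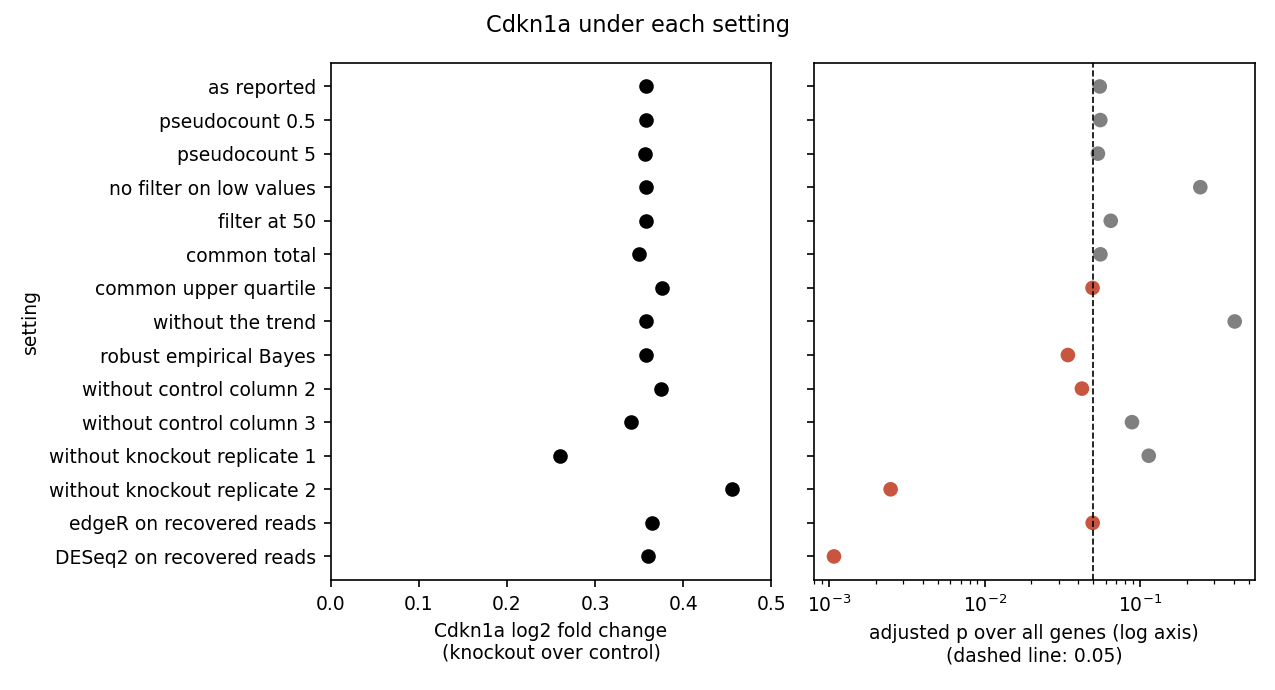
Cdkn1a under the reported fit and 14 alternatives: log2 fold change, knockout over control (left), and adjusted p over all genes on a log axis (right; dashed line at 0.05, red points below it). The fold change stays between 0.26 and 0.46 while the adjusted p lies on both sides of the line.

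Markers of other cells differed between the same pools. All 8 acinar markers had a lower mean in knockout islets, none past the test, and their summed normalized count was 13628 and 15305 in controls against 6544 and 11399 in knockouts. All 7 stellate cell and fibroblast markers had a higher mean, 1 past the test (Dcn), with sums of 2048 and 1543 against 3319 and 2443. Knockout replicate 1, the pool with the most Cdkn1a, had the lowest acinar and the highest stellate sum. No marker of these lists was at 0 in all pools. Their part in the Cdkn1a values was not tested, and in RNA of whole islets a change in the number of cells of a type and a change in RNA per cell cannot be told apart.

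Cdkn1a has 2 start sites in RefSeq, and the gene total sums the transcripts of both. The 250 bases before each are shown because this is the member nearest to the threshold (GRCm38.p6, plus strand: upstream start, chr17:29090729-29090978; downstream start, chr17:29093519-29093768). Capitals mark a full p53 site in the first and GC boxes in the second.
Cdkn1a upstream start: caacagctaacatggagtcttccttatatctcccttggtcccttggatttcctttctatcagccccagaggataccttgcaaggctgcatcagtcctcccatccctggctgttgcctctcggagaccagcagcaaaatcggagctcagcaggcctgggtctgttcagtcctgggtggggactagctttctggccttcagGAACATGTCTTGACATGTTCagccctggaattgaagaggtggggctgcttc
Cdkn1a downstream start: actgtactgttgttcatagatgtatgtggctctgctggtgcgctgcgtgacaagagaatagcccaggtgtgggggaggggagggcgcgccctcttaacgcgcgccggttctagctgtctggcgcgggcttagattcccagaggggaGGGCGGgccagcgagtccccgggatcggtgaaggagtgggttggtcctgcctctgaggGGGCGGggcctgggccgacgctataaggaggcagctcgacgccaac

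The p53 site was searched as the p53 full-site consensus of 20 bases, a pair of half-sites with no spacer and at most 1 mismatch. It lies at chr17:29090928-29090947 and begins 51 bases before the upstream start. Of all RefSeq windows of this length, 0.0761% (25 of 32851) hold such a site, and the downstream window of Cdkn1a holds none. The motif was chosen after these windows had been read, so the share describes the site and is no test of it. Only this motif was allowed a mismatch, and the site shown uses it. Neither window holds TATAAA, an E-box or an E2F word (TTTCGCGC, TTTGGCGC or TTTCCCGC on either strand).
The values do not separate the 2 starts, since reads are given per gene.

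Cdkn1b (p27; ENSMUSG00000003031; chr6:134920401-134925513, plus strand), the other CIP/KIP gene here, hardly differed between pools. It stood at 4368 and 4276 normalized reads in the controls and at 4291 and 4132 in the knockouts, and the genotypes overlapped. Its log2 fold change was -0.04 ± 0.05 (SE; 95% interval -0.15 to 0.07; limma adjusted p = 0.796). Per kilobase of exon, Cdkn1a was 1.32 times Cdkn1b in both controls, and 1.82 and 1.65 times in knockout replicates 1 and 2. The ratio was higher in both knockout pools than in both controls.

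The INK4 genes are led by Cdkn2b (p15; ENSMUSG00000073802; chr4:89306299-89311039, minus strand), which is known as a target of TGF-beta signalling. It stood at 932 and 1039 normalized reads in the controls and at 786 and 824 in the knockouts. Both knockout pools lay below both controls. The means were 986 ± 76.1 and 805 ± 26.8 (SD, n = 2 each), a log2 fold change of -0.29 ± 0.08 (SE; 95% interval -0.47 to -0.11). It did not pass the test (limma adjusted p = 0.131, from 0.0542 to 0.427 over the 14 alternatives).
The 250 bases before its start, shown because Cdkn2b is the other member with an unadjusted p under 0.05, hold none of the motifs searched (GRCm38.p6, chr4:89311033-89311282, minus strand).
Cdkn2b: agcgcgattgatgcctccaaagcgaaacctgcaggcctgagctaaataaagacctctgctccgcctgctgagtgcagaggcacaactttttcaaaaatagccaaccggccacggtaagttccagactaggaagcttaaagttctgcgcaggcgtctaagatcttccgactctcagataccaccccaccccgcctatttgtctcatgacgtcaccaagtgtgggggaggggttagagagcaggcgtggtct

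Cdkn2c (p18; ENSMUSG00000028551; chr4:109660876-109667189, minus strand) stood at 564 and 593 normalized reads in the controls and at 538 and 523 in the knockouts. The knockouts lay below the controls by a narrow margin. A log2 fold change of -0.13 ± 0.08 (SE; 95% interval -0.31 to 0.06) did not pass the test (limma adjusted p = 0.557).

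Cdkn2a (ENSMUSG00000044303; chr4:89274471-89294653, minus strand) encodes both p16 and, from another first exon, the p53 activator ARF. The gene total does not separate the 2 annotated transcripts, which share their later exons. Its normalized count was 27.6 and 28.3 in the controls and 24.98 and 29.7 in the knockouts, and the genotypes overlapped. These are 27, 29, 24 and 31 reads, with exact 95% Poisson intervals from 17.8 to 39.3 for the first and 21.1 to 44.0 for the last. Between genotypes the log2 fold change was -0.03 ± 0.27 (SE; 95% interval -0.65 to 0.58; limma adjusted p = 0.979). A change of either sign within that interval remains possible, and what sets the width of the interval was not tested. Without knockout replicate 1 the log2 fold change was 0.087. Per kilobase of exon, Cdkn2b was between 23.4 and 31.0 times Cdkn2a, its neighbour on chromosome 4.

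Within the 5 inhibitors followed here, Cdkn1a held 39.8% ± 1.01 per kilobase in control pools and 48.2% ± 2.29 in knockout pools (SD, n = 2 per genotype). The CDK inhibitor genes Cdkn1c and Cdkn2d, described further down, are not part of this sum. Cdkn1b came to 30.1% ± 0.72 and 27.8% ± 0.59, Cdkn2b to 22.5% ± 1.54 and 17.4% ± 1.42, and Cdkn2c to 6.84% ± 0.18 and 5.93% ± 0.16. Cdkn2a was under 1% in every library, at 0.756% ± 0.01 in controls and 0.703% ± 0.12 in knockouts. The share of Cdkn1a was larger in both knockout pools than in both controls, and those of Cdkn1b, Cdkn2b and Cdkn2c were smaller, which shares of 1 sum are bound to do in part. The 5 inhibitors summed to 3131 and 3170 in controls and 3447 and 3220 in knockouts. The D-type cyclins summed to 2.90 and 2.85 times the inhibitors in controls and to 2.67 and 2.503 times in knockouts.

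Over all 4 pools, the order per kilobase of exon ran from Ccnd2 (mean 6888) over Ccnd1 (1726), Cdkn1a (1431), Cdk4 (1114), Cdkn1b (937), Cdkn2b (644), Ccnd3 (229), Cdkn2c (206) and Cdkn2a (23.6) to Cdk6 (3.74). From first to last this is a 1840-fold range. The ranges over pools overlap for 2 pairs of neighbours, Ccnd1 with Cdkn1a and Ccnd3 with Cdkn2c, and not for the other 7. The place of Cdkn1a depends on how length is taken. Per kilobase of the longest transcript it stood at 2933 and 2562 in the knockouts, above Ccnd1 at 2174 and 1954. In the controls it stood at 2165 and 2115, with Ccnd1 at 2504 and 2062. Ccnd2 ranked above 99.0% of tested genes per kilobase of exon, Ccnd1 above 94.4%, Cdkn1a above 93.1% and Cdk4 above 90.7%.

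Taken by group range, the genotypes did not overlap for 5 of the 10 genes (Ccnd3, Cdk6, Cdkn1a, Cdkn2b and Cdkn2c), beside 45.0% of all tested genes, so this count is near the background. The median log2 fold change of the 10 was -0.05, with 3 above 0 and 7 below, beside a median of 0.00 (0.00023) and 50.1% above 0 over all tested genes. The median size of the change, regardless of sign, was 0.12 for the 10 and 0.10 for all tested genes. For 6 of the 10, exons overlap an antisense gene, and whether the counting used strand is not given in the sources used here. The partners with sizable counts are Tspan31 for Cdk4 (641 shared bases; 3934 to 4259 normalized reads), LTO1 for Ccnd1 (1100 shared bases; 1058 to 1199) and Bysl for Ccnd3 (361 shared bases; 686 to 761). The partner of Cdkn1a reached at most 17.7 normalized reads.

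**Figure D4:**
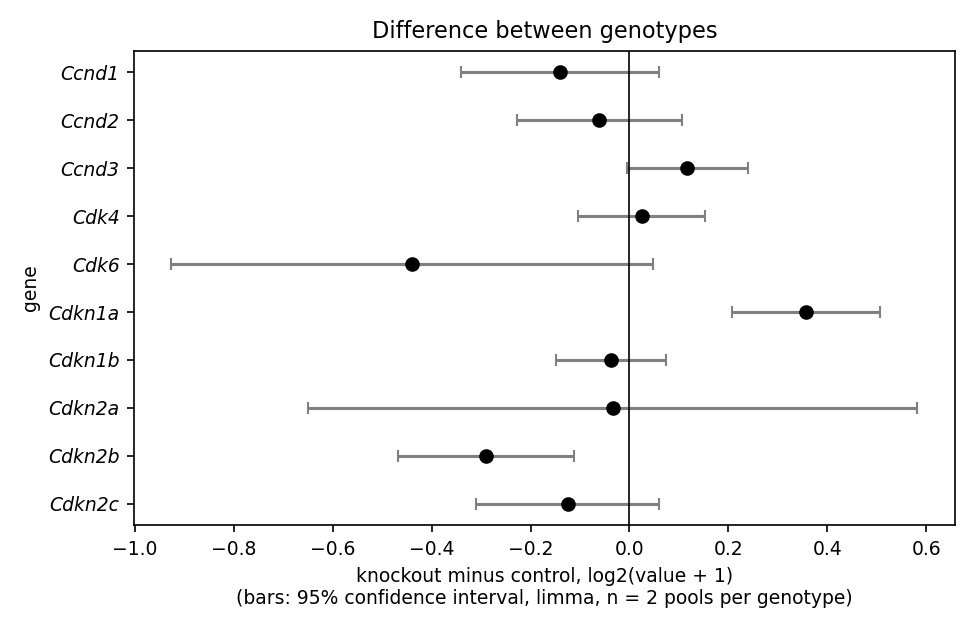
Log2 fold change, knockout minus control on log2(value + 1), of the 10 genes with unadjusted 95% confidence intervals from limma (n = 2 pools per genotype). The intervals of Cdkn1a (0.21 to 0.51) and Cdkn2b (-0.47 to -0.11) leave out 0, and those of the low genes Cdk6 and Cdkn2a are the widest.

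The genes around this switch were described from 6 lists of 64 genes in all, every one of which was measured. None passed the limma test (3 above and 3 below controls at an unadjusted p under 0.05, where 14.1% of all tested genes fall). DESeq2 called 1, Myc, and edgeR none.

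Of 13 genes of the RB family and the E2F factors, 7 had a log2 fold change above 0, with a median of 0.02. Rb1, the retinoblastoma gene, stood at -0.05 ± 0.06 and the E2F partner Tfdp2 at 0.02 ± 0.06 (log2 fold change ± SE). Of 8 cyclins and CDKs of S phase and mitosis, 2 were above 0, with a median of -0.03. Among them Ccne2, a cyclin E gene, stood at -0.15 ± 0.10, and Cdc25a, a phosphatase that activates CDKs, at -0.02 ± 0.06. The remaining CDK inhibitors, Cdkn2d (p19, an INK4 protein) and Cdkn1c (p57), stood at 0.15 ± 0.09 and 0.08 ± 0.17. Of 18 E2F target and proliferation genes, 7 were above 0, with a median of -0.05. In that list Pcna, the DNA polymerase clamp, stood at -0.10 ± 0.07 and the helicase subunit Mcm7 at -0.04 ± 0.08.

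The division marker Mki67, named after its values were seen, was at 227 and 190 normalized reads in controls and 216 and 218 in knockouts, with a log2 fold change of 0.06 ± 0.13 (SE). Among 13 regulators of D-type cyclins and CIP/KIP proteins, 3 were above 0, with a median of -0.06. The prolactin receptor gene Prlr stood at -0.02 ± 0.08 and the kinase gene Gsk3b, whose product marks cyclin D1 for export and breakdown, at -0.07 ± 0.05. Among 10 Polycomb, Trithorax and p53-side regulators of the INK4, ARF and p21 genes, 2 were above 0, with a median of -0.13. Of these, Bmi1, a Polycomb gene that represses the Cdkn2a locus, stood at -0.03 ± 0.06 and the Trithorax gene Kmt2a at -0.21 ± 0.10. Trp53, the p53 gene, also named after its values were seen, stood at 921 and 841 in controls and at 772 and 843 in knockouts, where the genotypes overlapped (log2 fold change -0.12 ± 0.08).

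Myc, also named after its values were seen, stood at 713 and 535 normalized reads in the controls and at 872 and 953 in the knockouts. Both knockout pools lay above both controls, which themselves lay far apart. Its log2 fold change of 0.56 ± 0.13 (SE; 95% interval 0.28 to 0.84) did not pass the test (limma adjusted p = 0.0857). Among the fits with all 4 pools, Myc was called by DESeq2 (adjusted p = 0.0118). Its log2 fold change was 0.77 without control column 2 and 0.35 without control column 3. Without knockout replicates 1 and 2 in turn, it was 0.63 and 0.50. Over the alternatives with all 4 pools its adjusted p ranged from 0.0118 to 0.432.

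**Figure D5:**
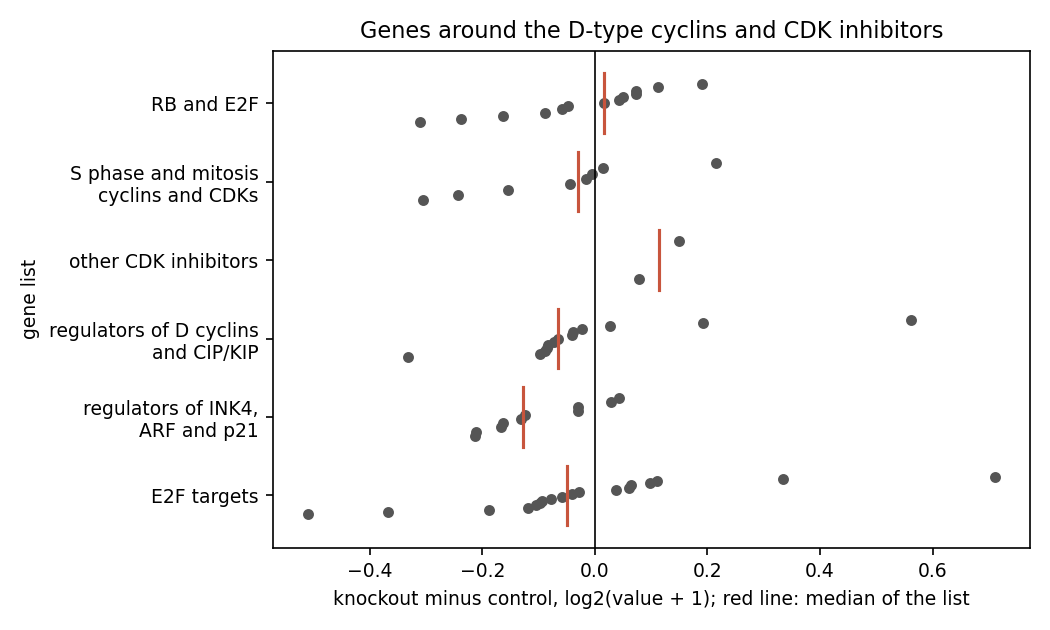
Log2 fold change, knockout minus control on log2(value + 1), of each gene (grey points) in 6 lists around the D-type cyclins and CDK inhibitors, with the median of each list as a red line. The medians lie between -0.13 and 0.11. The farthest points to the right are Plk1 at 0.71 in the E2F target list and Myc at 0.56. The farthest to the left is Cdc6 at -0.51, also in the E2F target list. Plk1 and Cdc6, named after their values were seen, have low counts (17.4 to 38.5 and 37.5 to 74.0 normalized reads).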

How the data were processed

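The authors deposited 1 table of 55487 genes. Each library column holds a signal, the number of reads of a gene scaled for library size, per the file headers and name. Per the file headers the deposited comparison has a log2 fold change with its standard error, a test statistic (a score) and raw and adjusted p-values. The sign of that log2 fold change is control over knockout. GRCm38, STAR 2.5.1b, featureCounts 1.6.0, DESeq2 1.22.2 and CASAVA 1.4 are listed, without roles, per the submitters' processing notes. Annotation and strand setting are not given in the sources used here.

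Values were tested with limma 3.58.1 (R 4.3.3) on log2(value + 1), with a mean-variance trend, two-sided, for the 16589 genes with at least 10 in at least 2 libraries. Empirical Bayes added 6.85 degrees of freedom to 2 residual ones. The pseudocount understates changes of low genes. Each column's values are whole multiples of its smallest value for 100% of genes (within 0.01 of a read), and on the recovered reads edgeR 4.0.16 and DESeq2 1.42.0 were run as alternatives. The labels list the pools as separate samples. Exon lengths and coordinates are from GENCODE M21 (GRCm38), with 99.5% of identifiers matched, and lengths assume even coverage. RefSeq windows (GRCm38.p6) matched 8 of 10 genes. The motifs were chosen after the windows had been read. The steps were tested on simulated data. The genes, lists and tests were chosen with earlier results of these data known. Named genes are the 10, Ggcx, and the called or else the 2 most counted genes of each list, with exceptions marked.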

Additional observations from a re-analysis of the deposited data

How the results depend on the processing

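No paired analysis was possible because the control columns carry numbers other than those of the control samples, so the columns of the genotypes share fewer than 2 numbers. Of the 10 genes, 0 were called in the reported limma fit, which used all libraries. That count was 1 (Cdkn1a) with a common upper quartile, robust empirical Bayes, edgeR and DESeq2, and between 0 and 1 with 1 library left out. The log2 fold change of Cdkn1a in those 4 fits was 0.38, 0.36, 0.36 and 0.36, and 0.26 to 0.46 with 1 library left out. Among the uncalled genes the sign turned with 1 library left out for Ccnd2 (-0.16 to 0.043), Cdk4 (-0.030 to 0.079) and Cdkn2a (-0.15 to 0.087). The other genes kept their sign in every alternative run. Cdkn2a was not tested with a filter at 50 and has no adjusted p in DESeq2. Over all genes, 41 were called higher and 62 lower. These counts were 1 and 1 with no filter, 19 and 32 with a filter at 50, 0 and 0 without the trend (limma; 1841 genes at an unadjusted p under 0.05), 85 and 124 with robust empirical Bayes, and 111 and 203 with DESeq2. With 1 library left out they ran from 58 (control column 3) to 207 (control column 2) higher and from 49 to 241 lower. Of the list genes, 1 was called by DESeq2, and 0 to 1 with 1 library left out. With the longest transcript as length, the share of Cdkn1a was 52.7% in controls and 61.0% in knockouts, that of Cdk4 99.7% and 99.8%, and that of Ccnd2 in knockouts 79.4%. Cdk6 and Cdkn2a had the lowest counts of the 10 genes and the widest intervals of the log2 fold change. What sets the width of the intervals was not tested for any of the genes.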
